A study of Mus musculus with 12 samples.

Results

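miR-1948 and miR-802 are a pair of mouse liver microRNA hairpins whose levels differ between males and females in opposite directions. Both mature arms of each were taken by name from the deposited count table, which gave 4 mature microRNAs of 1906 names: mmu-miR-1948-5p, mmu-miR-1948-3p, mmu-miR-802-5p and mmu-miR-802-3p, written below without the species prefix. Small RNA was sequenced from flash-frozen whole livers of Crl:CD1(ICR) mice, an outbred stock, at 8 weeks of age, with no allele or treatment named in the labels. There were 6 male livers and 6 female livers, with 1 library each. Outbred animals differ from each other in genotype, and whole liver mixes hepatocytes with other cells. The labels say nothing of pooling or batches, so any spread given is that between these livers. Their library numbers run through the males and then the females, so sex and any order of handling cannot be told apart. The study sequenced them to find microRNAs that differ between the sexes, and the members were chosen by their log2 fold change between the sexes in these same livers. Their difference between males and females is therefore given as a description, with no test.

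A microRNA hairpin is cut by Dicer into a duplex of a 5p and a 3p arm. Usually a single arm is kept in an Argonaute protein, where its seed, the bases near its 5′ end, pairs with messenger RNAs and lowers their translation or stability. Many genes of mouse liver differ between the sexes because pituitary growth hormone reaches the liver in pulses in males and more evenly in females, and miR-1948 and miR-802 were followed up by the study's authors as microRNAs of this kind. miR-802 is also known from the livers of obese mice, where it is raised.

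Only the miR-802 sequences are shown, because the RefSeq set used held 2 of the 4 members, both arms of miR-802, and no entry for miR-1948. In the mature arms the seed, bases 2 to 8, is in capitals, and in the hairpin the capitals mark both mature arms. Sequences and positions are those of RefSeq on GRCm38.p6, plus strand, with the hairpin at chr16:93369720-93369816.
miR-802-5p: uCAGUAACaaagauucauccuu
miR-802-3p: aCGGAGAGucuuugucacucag
mir-802: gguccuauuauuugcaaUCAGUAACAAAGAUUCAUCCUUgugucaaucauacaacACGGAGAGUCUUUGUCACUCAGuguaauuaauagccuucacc

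The hairpin has 97 bases, with the 5p arm at bases 18 to 39 and the 3p arm at bases 56 to 77. Its predicted fold has a free energy of -30.8 kcal/mol, with 18 of the 22 bases of the 5p arm paired and 16 of the 22 of the 3p arm. Of the 1679 mature names in the RefSeq table, 0 others had the seed of either miR-802 arm, and 0 shared even bases 2 to 7. In the deposited coordinates, on mm9, miR-802-5p lies on chromosome 16 at 93369982 to 93370003 and miR-802-3p at 93370020 to 93370041. In RefSeq the hairpin stands in no annotated gene, between the long non-coding RNA genes 1810053B23Rik and 1700029J03Rik, and the nearest protein-coding genes are Runx1 and Setd4. miR-1948-5p lies on mm9 chromosome 18 at 12873334 to 12873354 and miR-1948-3p at 12873371 to 12873392. Its hairpin is intronic, on the strand of its host gene Ttc39c, and touches no annotated exon of it. Each of the 4 arms has 1 locus in the table, and 0 other loci overlap any of them, so their reads are not shared with a named copy.

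Total microRNA counts lay between 2953955 and 5516430 per liver, and 3 counts correspond to between 0.544 and 1.02 CPM, which are counts rescaled to a common library size. CPM below carry edgeR's TMM factors, and intervals on counts cover counting error only. The liver microRNAs miR-122, miR-192, miR-194 and miR-148a together took 44.0% to 48.2% of counts in males and 52.0% to 55.0% in females. After TMM scaling 0 of their 8 tested arms passed edgeR's test for a sex difference (1 at an unadjusted p of 0.05, 0 by DESeq2). miR-21a-5p had a mean of 170965 CPM in males against 82215 in females. With TMM factors from all but miR-21a-5p and miR-122-5p, the members' log2 fold changes, male minus female, were 2.68, 2.62, -1.20 and -1.08 in the order named above. Scaled by total counts alone they were 2.56, 2.50, -1.31 and -1.20. The cause of this shift in library makeup was not tested.

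miR-1948-5p, the abundant arm, was high in every male liver and low in every female liver. In males it had 296 CPM in male 1, 341 in male 2, 399 in male 3, 268 in male 4, 303 in male 5 and 535 in male 6. In females it had 69.5 CPM in female 1, 54.1 in female 2, 55.9 in female 3, 47.7 in female 4, 58.6 in female 5 and 50.7 in female 6. The sexes did not overlap: the lowest male, male 4, stood 3.86-fold above the highest female, female 1. Male 6 was the highest of all livers, and the males covered a 1.99-fold range against 1.46-fold in females. On the log2 scale the males exceeded the females by 2.67 (standard error 0.17).

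miR-1948-3p, the arm that is mostly lost, showed the same order of the sexes at a far lower level. It was read 25, 38, 30, 21, 18 and 18 times in males 1 to 6, and 8, 3, 2, 5, 4 and 4 times in females 1 to 6. These counts correspond to 4.45 to 8.09 CPM in males against 0.476 to 1.96 in females, again with no overlap. Single female values are loose: the 2 counts of female 3 allow 0.0577 to 1.72 CPM (exact Poisson 95% interval). On the log2 scale the males exceeded the females by 2.61 (standard error 0.29), which lies within that error of the value of the 5p arm.

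miR-802-5p showed the reverse, with every female above every male but a smaller distance between the sexes. In females it had 227 CPM in female 1, 231 in female 2, 272 in female 3, 265 in female 4, 189 in female 5 and 260 in female 6. In males it had 72.8 CPM in male 1, 141 in male 2, 82.8 in male 3, 123 in male 4, 121 in male 5 and 88.4 in male 6. Males 2, 4 and 5 were thus nearer to the females than males 1, 3 and 6 were. The lowest female, female 5, stood 1.33-fold above the highest male, male 2. Male minus female, the log2 difference was -1.20 (standard error 0.16), which makes it 2.29-fold higher in females.

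miR-802-3p followed its partner arm. It had 29.1, 30.2, 39.5, 35.6, 26.7 and 27.6 CPM in females 1 to 6 and 14.9, 21.2, 12.6, 15.8, 15.1 and 8.98 CPM in males 1 to 6. Female 3 was the highest and male 2 the highest male, as for the 5p arm, while the lowest male was male 6 rather than male 1. The lowest female stood 1.26-fold above the highest male, and the log2 difference, male minus female, was -1.08 (standard error 0.18).

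**Figure D1:**
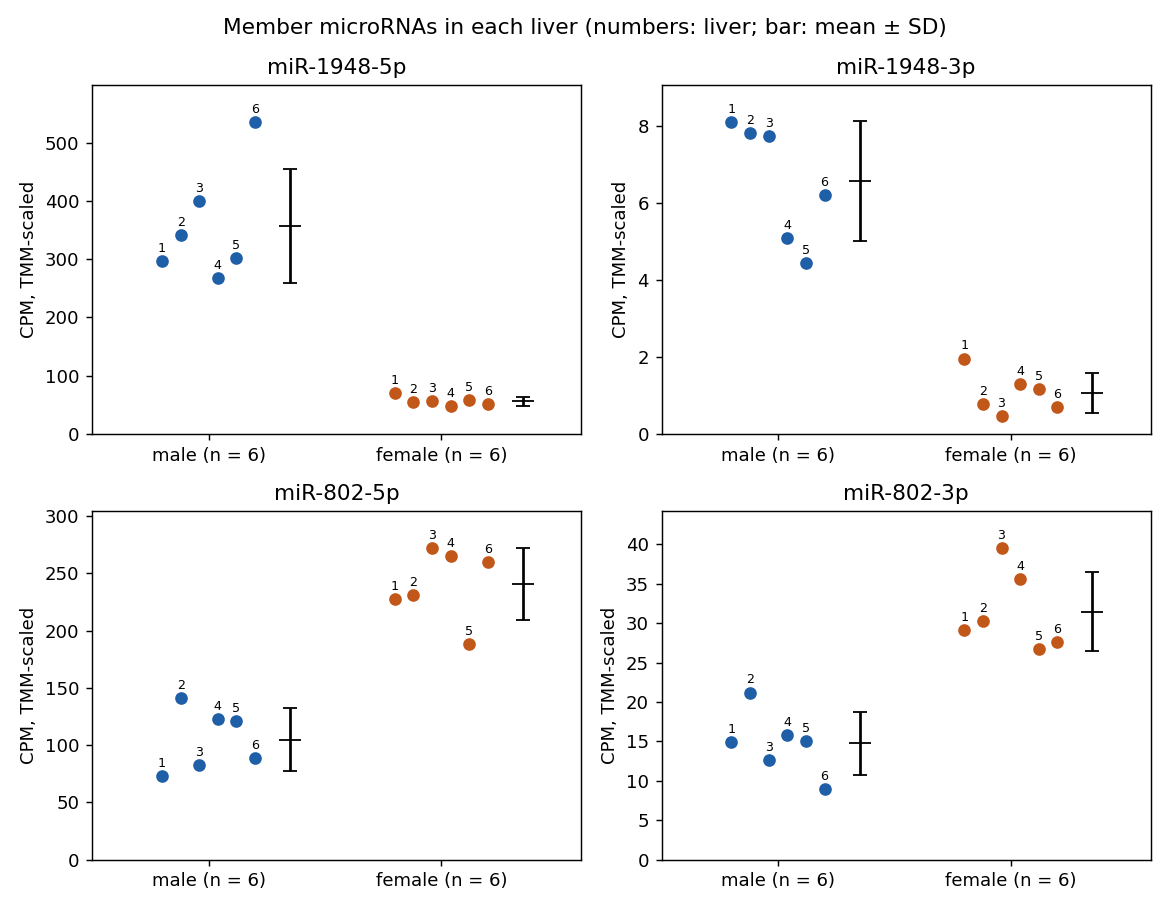
CPM of the 4 mature arms (y axis, TMM-scaled) in each of 6 male (blue) and 6 female (orange) livers, with points numbered by liver and black bars for the mean ± SD. Both arms of miR-1948 are higher in every male, and both arms of miR-802 are higher in every female.

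Over all microRNAs, 71 of 419 tested, or 16.9%, passed edgeR's quasi-likelihood test at a Benjamini-Hochberg adjusted p of 0.05, with 47 called when male 3 was left out. Some calls are the same reads under different names, as for miR-374b-5p and miR-374c-3p. All 4 members were among those called. The 35 calls higher in males, 8.35% of those tested, held both arms of miR-1948, and the 36 higher in females, 8.59%, held both arms of miR-802. Nothing is read from this, since the same contrast chose the members. Scaled by total counts alone, the split was 26 and 58, and over all 419 the median log2 difference moved from -0.02 to -0.12. Likewise the sexes did not overlap in 4 of 4 members, against 8.11% of all tested microRNAs. By the size of the log2 fold change the arms of miR-1948 ranked first and second of 419, and those of miR-802 ranked 11 and 14. The authors' deposited table gives log2 fold changes of 2.70 for miR-1948-5p, 2.65 for miR-1948-3p, -1.16 for miR-802-5p and -1.04 for miR-802-3p.

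**Figure D2:**
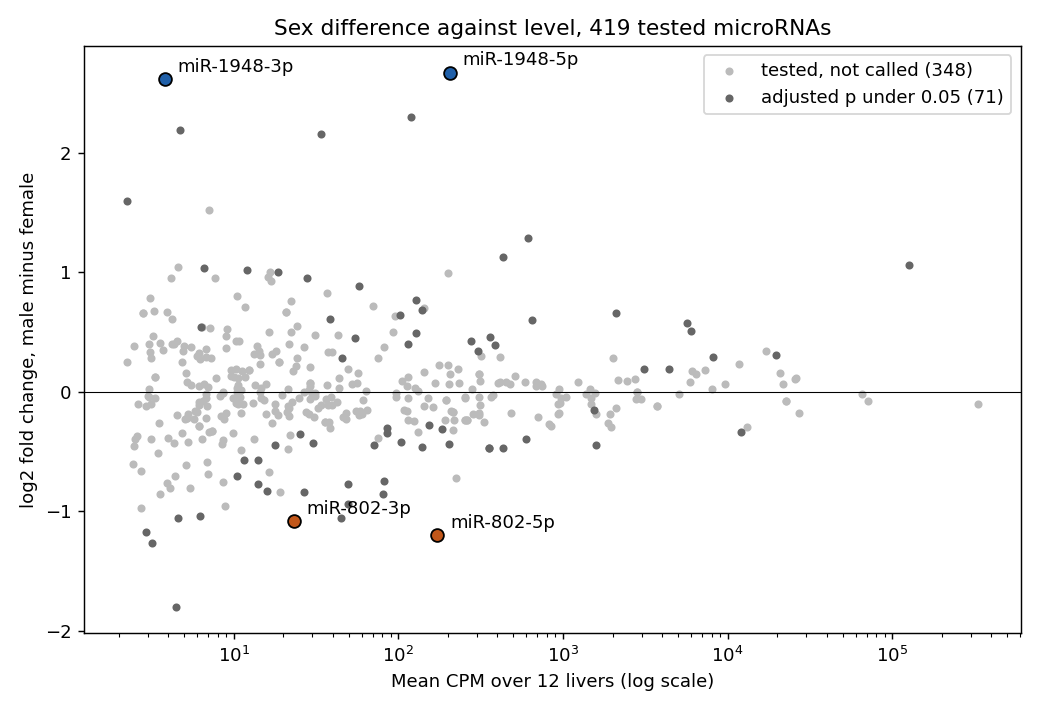
Log2 fold change, male minus female (y axis), against mean CPM over 12 livers (x axis, log scale) for 419 tested microRNAs, with the 71 called in dark grey. The arms of miR-1948 (blue) lie at the top at 2.67 and 2.61, and those of miR-802 (orange) at -1.20 and -1.08.

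None of the 4 is among the dominant microRNAs of liver. miR-1948-5p ranked 85 of 419 by mean CPM in males and 172 in females, and miR-802-5p ranked 150 in males and 106 in females. Over all livers they stood close together, at rank 114 for miR-1948-5p and 125 for miR-802-5p. In mean CPM miR-1948-5p fell between let-7e-5p (210 CPM) and let-7c-2-3p (205 CPM), arms of the let-7 family of growth-restraining microRNAs. Those means hide its spread: the SD over the 12 livers was 171 CPM for miR-1948-5p, 26.4 for let-7e-5p and 16.3 for let-7c-2-3p. miR-802-5p fell between miR-378a-5p (176 CPM), from an intron of Ppargc1b, and miR-423-5p (168 CPM), with an SD of 76.3 CPM against 22.8 and 24.0. The rarer arms ranked 228 (miR-802-3p) and 385 (miR-1948-3p).

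Because 1 member is high where the other is low, their ratio within a liver separated the sexes without any scaling between libraries. In males, counts of miR-1948-5p exceeded those of miR-802-5p 4.06-fold in male 1, 2.41-fold in male 2, 4.82-fold in male 3, 2.19-fold in male 4, 2.50-fold in male 5 and 6.04-fold in male 6. In females the ratio was 0.306 in female 1, 0.235 in female 2, 0.206 in female 3, 0.180 in female 4, 0.311 in female 5 and 0.195 in female 6. The ratio was above 1 in every male and below 1 in every female. The lowest male stood 7.03-fold above the highest female. Males covered a wider range than females, with an SD of the log2 ratio of 0.61 against 0.34 (n = 6 each). The mature arms are 21 or 22 bases long, and the part of length or adapter ligation in the level of this ratio was not tested.

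**Figure D3:**
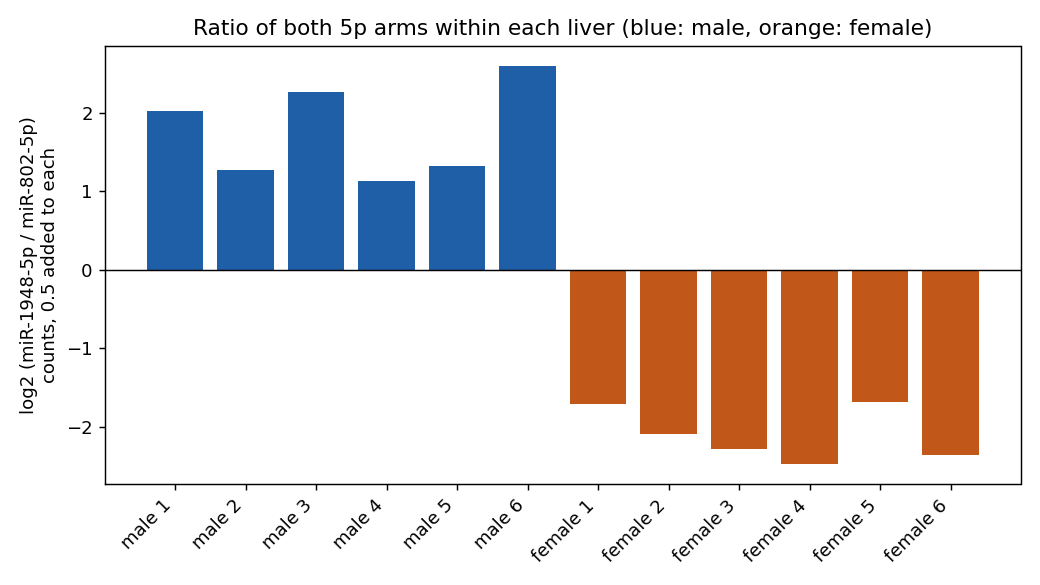
Log2 ratio of miR-1948-5p to miR-802-5p counts (y axis, 0.5 added to each count) in each liver (x axis), males in blue and females in orange. All 6 male bars lie above 0, from 1.13 to 2.59, and all 6 female bars below 0, from -2.47 to -1.68.

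The hairpins differed in how strongly the 5p arm outweighed the 3p arm, a comparison between hairpins that does not use the sex difference. The 5p arm held 98.1 ± 0.624% of the counts of miR-1948 and 88.0 ± 1.99% of those of miR-802 (SD, n = 12). In each of the 12 livers the share was higher for miR-1948, by 8.07 to 14.3 percentage points. The mean difference was 10.2 percentage points (SD 1.76, n = 12; exact two-sided sign-flip permutation test over 4096 arrangements, p = 0.000488, the smallest it can give). Summed over livers this is 9400 reads of the 5p arm to 176 of the 3p arm for miR-1948, and 8582 to 1136 for miR-802. A test over livers cannot tell a difference between hairpins from an adapter ligation bias shared by all libraries, and the part of ligation was not tested. Among 124 hairpins with both arms tested, miR-1948 ranked 18 and miR-802 ranked 39 by mean 5p share. Some of the 124 are mirrored names that hold the same reads with the arms exchanged, such as miR-486a and miR-486b.

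The 5p share was close in both sexes. For miR-1948 it was 98.1 ± 0.540% in males against 98.2 ± 0.751% in females (SD over 6 livers). For miR-802 it was 87.5 ± 2.64% against 88.4 ± 1.09%. The lowest share of miR-802 was that of male 1, 83.0% of 271 counts (exact binomial 95% interval 78.0% to 87.3%), and the highest that of male 6, 90.8% of 282 counts (86.8% to 93.9%). The shares of the sexes overlapped for both hairpins.

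**Figure D4:**
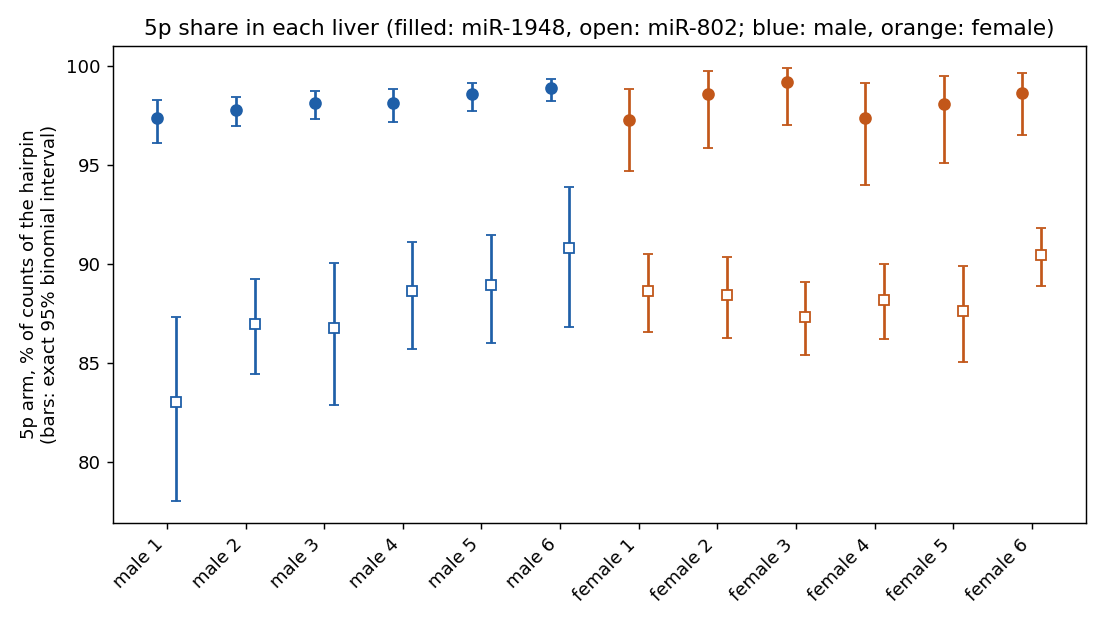
Share of the 5p arm in the counts of its hairpin (y axis, percent) in each liver, miR-1948 as filled circles and miR-802 as open squares, males in blue and females in orange, with exact 95% binomial intervals. miR-1948 lies between 97.3% and 99.2% and miR-802 between 83.0% and 90.8%, with miR-1948 higher in all 12 livers.

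The spread of the members between livers of a sex is given with the part that counting alone would give. The coefficient of variation of miR-1948-5p was 27.5% in males and 13.6% in females, where counting alone would give 2.74% and 6.55%. For miR-802-5p it was 25.9% in males and 13.1% in females, against 4.91% and 3.14% from counting. For miR-1948-3p the values were 23.6% and 49.9%, close to the 20.0% and 48.0% that counting gives, so its order within a sex is not resolved at this depth. miR-802-3p lay between, at 27.2% in males and 16.0% in females against 13.1% and 8.74%.

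Relations between members within a sex were computed for 3 pairs in each sex, 6 relations in all, over 6 livers each. None of the 6 passed the exact permutation test, where the smallest possible p is 0.00278, so none is established at this number of livers. The arms of miR-802 had a Pearson r of 0.63 in males (exact permutation p = 0.194, adjusted p = 0.473; Spearman rho 0.77, exact p = 0.103, adjusted p = 0.308). In females r was 0.71 (exact permutation p = 0.112, adjusted p = 0.473; rho 0.83, exact p = 0.0583, adjusted p = 0.308). Without the 2 livers farthest from the median of the 5p arm r was 0.76 in males and 0.39 in females. With a single liver left out, the r of males lay between 0.37 (without male 2) and 0.86 (without male 1). That of females lay between 0.62 (without female 3) and 0.94 (without female 6). The arms of miR-1948 had r of 0.26 in males (exact permutation p = 0.643, adjusted p = 0.643; rho 0.09, exact p = 0.919, adjusted p = 0.919). In females r was 0.51 (exact permutation p = 0.294, adjusted p = 0.473; rho 0.26, exact p = 0.658, adjusted p = 0.919). Without the 2 farthest livers r was 0.51 and 0.41, and without female 1 alone the r of females was -0.28 and without female 4 alone 0.85. In males it was 0.04 without male 4, 0.10 without male 5, 0.47 without male 1 and 0.57 without male 6.

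miR-1948-5p and miR-802-5p had negative coefficients within each sex. In males r was -0.34 (exact permutation p = 0.514, adjusted p = 0.617; rho -0.14, exact p = 0.803, adjusted p = 0.919) and turned to 0.30 without males 3 and 6. It was -0.72 without male 1 alone, -0.21 without male 4 alone and -0.55 with scaling by total counts alone. In females r was -0.51 (exact permutation p = 0.315, adjusted p = 0.473; rho -0.60, exact p = 0.242, adjusted p = 0.483) and was -0.65 without females 1 and 4. With 6 livers a sex, the direction in males thus rested on those 2 livers.

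The microRNAs whose pattern was most like that of each 5p arm were ranked by Pearson r of log2 CPM over the 12 livers, among 298 others with a mean of at least 10 CPM. These r follow mostly from the sex difference that chose the members, share the libraries and their scaling, and are given with no test. Most like miR-1948-5p were miR-29b-3p (r = 0.95), which represses collagen transcripts, miR-21a-5p (0.94), raised in many injured tissues, miR-677-5p (0.89), miR-30e-5p (0.89) and miR-99a-5p (0.89). Their log2 fold changes, male minus female, were 0.64, 1.06, 0.89, 0.58 and 0.29, all smaller than the 2.67 of miR-1948-5p.

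Most like miR-802-5p over the 12 livers were miR-152-3p (r = 0.92), of the miR-148 family, miR-335-3p (0.92), miR-142a-5p (0.90), an arm of a blood cell microRNA, miR-181a-1-3p (0.89) and miR-335-5p (0.89). The leading sequences are given with seeds in capitals.
miR-152-3p: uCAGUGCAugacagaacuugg
miR-335-3p: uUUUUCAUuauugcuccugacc
miR-142a-5p: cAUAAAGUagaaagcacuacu

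None of these seeds is that of miR-802-5p. This was fixed in advance, since 0 other mature names in RefSeq have that seed, so nothing is read from it. miR-152-3p begins with the same bases ucagu as miR-802-5p. miR-152-3p had 1344 ± 161 CPM in males against 1826 ± 113 in females (n = 6 each, SD), and its log2 fold change was -0.44. It was also, of the 298, the microRNA least like miR-1948-5p, with r = -0.92. In turn miR-677-5p, named above for its likeness to miR-1948-5p, was the least like miR-802-5p, with r = -0.90.

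When the mean of each sex was taken off, the ranking changed. The microRNAs nearest to miR-802-5p were then miR-322-5p (r = 0.87), miR-142a-5p (0.81) and miR-503-5p (0.80). miR-322 and miR-503 are neighbours in a cluster on the X chromosome. miR-322-5p overlapped between the sexes, with 53.8 ± 11.1 CPM in males against 51.4 ± 9.32 in females (n = 6 each, SD). Yet its order over livers within each sex was close to that of miR-802-5p, with r of 0.90 in males and 0.90 in females. In females it was highest in female 3, at 60.9 CPM, and lowest in female 5, at 37.1 CPM, which are also the highest and lowest females of miR-802-5p. In males it was highest in male 2, at 69.2 CPM, and lowest in male 1, at 40.8 CPM, again as for miR-802-5p. Male 2 also had the largest library of the males, 5516430 counts, and male 1 the smallest, 2953955. Female 5 had the smallest library of the females, 3423257 counts, but female 6 rather than female 3 had the largest. The part of library size in this order was not tested. miR-322-5p was picked as the highest of 298 coefficients, which carry no test.

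For miR-1948-5p the nearest after the sex means were taken off were miR-7a-1-3p (r = 0.75), miR-409-5p (0.74) and miR-7a-5p (0.72). miR-7a-5p was also higher in males by the test over all microRNAs, with 2582 ± 789 CPM against 1634 ± 236 CPM (SD, n = 6 each). miR-409-5p, of the imprinted Dlk1-Dio3 cluster, had the opposite sign of sex difference, a log2 fold change of -0.49, and was not called.

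**Figure D5:**
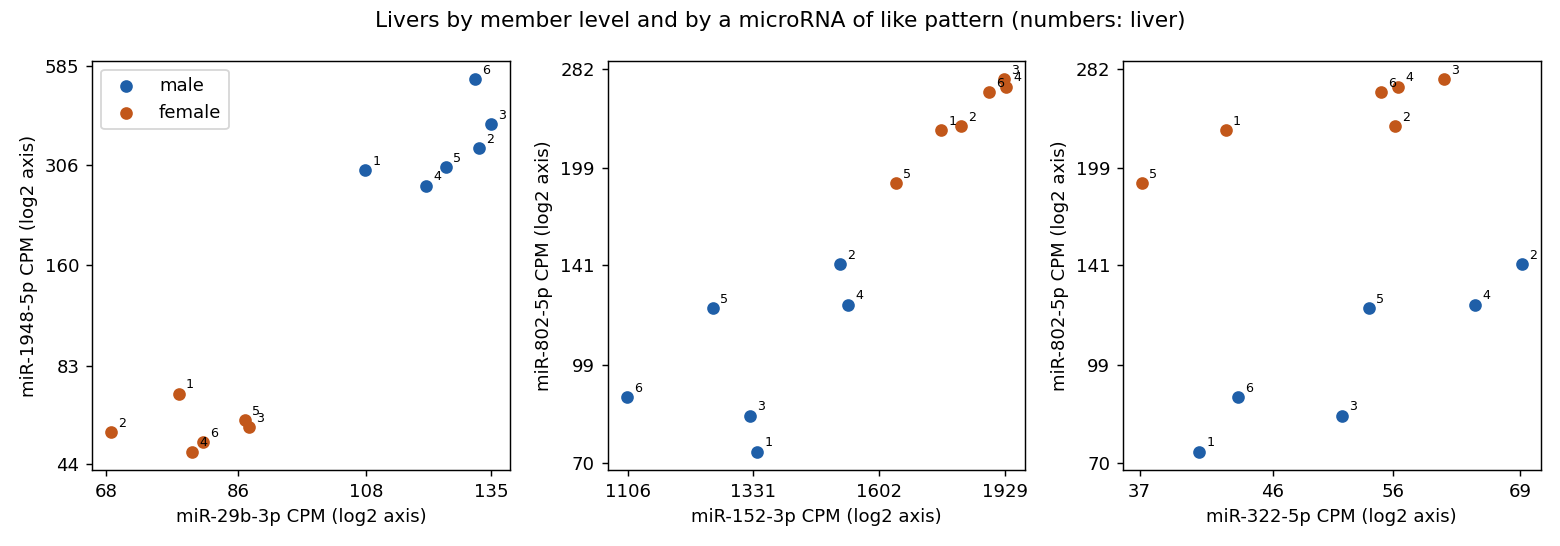
CPM of a 5p arm (y axis) against CPM of a microRNA of like pattern (x axis), both on log2 axes, 1 point per liver numbered by liver, males in blue and females in orange. miR-29b-3p and miR-152-3p follow the sexes, while miR-322-5p, between 37.1 and 69.2 CPM, follows miR-802-5p inside each sex and overlaps between the sexes.

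Markers of other liver cells were read beside these results. Of the 7 tested arms of immune cell microRNAs, 1 was higher in females, miR-142a-5p, with 364 ± 72.0 CPM in males against 505 ± 67.9 in females (n = 6 each, SD; log2 fold change -0.47, edgeR adjusted p = 0.0256). That is 14.3%, against 16.9% called over all microRNAs. The summed level of the list's 10 arms was 1109 to 1800 CPM in males against 1398 to 2035 in females. Of 10 arms of stellate cell, fibroblast and smooth muscle microRNAs, 2 (20.0%, near the same share) were higher in females, both arms of miR-143, and the list summed to 10434 to 17333 CPM in males against 16092 to 19118 in females. These sums are CPM without TMM factors, and male 1 was the only male inside the female range of the second list. Most of the second sum was miR-143-3p, with 10612 ± 1655 CPM in males against 13396 ± 903 in females (TMM-scaled, SD). In that list only miR-145a-5p and miR-199a-5p had positive log2 fold changes, 0.07 and 0.08, and they were not called. All its other arms were negative, among them miR-199b-5p at -0.36, not called, and the list's median was -0.14. The part of these cell types in the higher miR-802 of females was not tested, and in whole liver, fewer cells of a type and less RNA per cell cannot be told apart.

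miR-802 is also made in pancreas, so pancreatic microRNAs were read as well. The 8 arms of miR-216a, miR-216b, miR-217 and miR-375 summed to 1.81 to 52.0 CPM in males against 2.56 to 35.1 in females, highest in male 4. Only miR-375-3p passed the filter on low counts, with 10.4 ± 18.2 CPM in males against 3.70 ± 1.42 in females. The 35.1 CPM belonged to female 3, also the highest female for both miR-802 arms, and the other females had 2.56 to 8.08 CPM. Without male 4 the log2 fold changes of miR-802-5p and miR-802-3p were -1.25 and -1.10. Without female 3 they were -1.16 and -1.01, and with all livers -1.20 and -1.08. The part of pancreatic tissue in the miR-802 values was not tested.

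Of the microRNAs near the members on their chromosomes, 4 were tested and 0 were called by edgeR's test, with 0 at an unadjusted p of 0.05 and 0 by DESeq2. With 16.9% called over all microRNAs, a count of 0 among 4 says nothing particular of them. Within 10 Mb of miR-1948, 3 of 8 listed loci passed the filter on low counts. They were arms of the muscle microRNAs miR-133a and miR-1a, with the overlapping miR-1b, at 2.09 Mb. Both are also read from another locus. miR-1a-3p had 28.1 ± 40.0 CPM in males against 16.7 ± 10.1 in females, and miR-133a-3p 4.74 ± 7.32 against 3.11 ± 2.38 CPM (SD, n = 6 each). The SD in males was larger than the mean, and striated muscle microRNAs together reached 126 CPM in male 4. miR-1b-5p lies on the locus of miR-1a-3p, and reads of these names cannot be told apart. Within 10 Mb of miR-802, 1 of 5 loci was tested, miR-155-5p, an immune cell microRNA at 8.66 Mb, with 8.47 ± 2.97 CPM in males against 9.59 ± 1.33 in females and a log2 fold change of -0.18. miR-6964-3p, at 4.73 Mb, had 94 counts in all and was not tested.

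Other microRNAs tied to glucose handling, insulin action and obesity, the setting in which miR-802 is best known, were called in both directions. Of 74 tested arms on that list besides miR-802, 8 were higher in males and 10 higher in females, together 24.3%, against 16.9% over all. Their median log2 fold change was -0.06, against -0.02 over all. That list was chosen with earlier results of these data known, so nothing is read from its share. miR-21a-5p and miR-29b-3p had the smallest p, with log2 fold changes of 1.06 and 0.64. miR-122-5p, the dominant microRNA of hepatocytes, had a log2 fold change of -0.10 and was not called. The arms higher in females included both arms of miR-143 and miR-335, miR-152-3p and miR-34a-5p. Scaled by total counts alone, the counts were 8 and 17 and the median -0.17.

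Of 28 tested arms of hepatocyte-abundant microRNAs besides the members, 9 were higher in males and 0 in females (32.1%, against 16.9% over all), with a median log2 fold change of 0.20. The list was chosen with earlier results of these data known, so nothing is read from its share. miR-21a, miR-22 and miR-455 each gave both arms to those 9. At an unadjusted p of 0.05, 1 arm was higher in females, and 0 by DESeq2. The smallest p were those of miR-21a-5p and miR-455-3p, the latter with 596 ± 92.2 CPM in males against 273 ± 59.6 in females (n = 6 each, SD; log2 fold change 1.13, edgeR adjusted p = 0.000398). Both arms of miR-802 had the opposite sign to these 9 calls, but that sign chose the members, so nothing is read from it. Scaled by total counts alone, 6 were higher in males and 1 in females, with a median of 0.08.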

How the data were processed

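Per the labels' protocols, the authors built libraries with the NEBNext small RNA kit from Trizol-extracted liver RNA and call them strand-specific. Per the submitters' processing notes, build mm9 and the tools edgeR, bedtools, Bowtie2 and Trim Galore were used. Their settings, and whether counting used strand, are not given. Yet some 5p arms had exactly the values of the 3p arm of another name, so these names were counted from the same reads, whatever the strand. Examples are miR-374b-5p and miR-374c-3p, both at 354 CPM, and the arms of miR-486a and miR-486b. Such names enter the numbers of tested and called microRNAs, list arms and hairpins separately. The authors deposited raw counts per mature locus (2044 loci), and the authors' edgeR log2 fold change, log2 CPM, p-value and FDR.

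Here counts were summed over loci of the same name (1906 names), filtered with filterByExpr (419 names), scaled by TMM and compared with glmQLFit and glmQLFTest in edgeR 4.0.16 on R 4.3.3, with no covariate and Benjamini-Hochberg adjustment at 0.05. log2 CPM used a prior count of 2. DESeq2 1.42.0 was an alternative. The fit was also run on counts simulated with the same dispersion for every microRNA (biological coefficient of variation 0.252), a simpler setting than the data, and nothing is read from it. Permutation tests were exact and two-sided. Folds were predicted with ViennaRNA 2.7.2; sequences came from RefSeq for 2 of the 4 members. Gene context by name is from RefSeq and GENCODE on GRCm38.

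Members and lists were chosen with earlier results of these data known. Named are the members, the 5 microRNAs most like each 5p arm over 12 livers and the 3 most like it after sex means were taken off (mean of at least 10 CPM), abundance and chromosome neighbours (10 Mb, counts in at least 6 libraries), and the list members with the smallest p or highest level. Other called list members were named after their values were seen. Marker lists of erythroid, endothelial, biliary, nervous system and gonad microRNAs had 0 of 17 tested arms called by edgeR (1 at an unadjusted p of 0.05, 1 by DESeq2). No library or locus was left out.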

Additional observations from a re-analysis of the deposited data

How the results depend on the processing

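The direction of all 4 members was kept under every setting run. Under other scalings, filters, tools, thinning, separate loci and the replicate block, all 35 fold changes moved by less than the spread between livers. With a liver left out, log2 fold changes were 2.53 to 2.74 (miR-1948-5p), 2.46 to 2.88 (miR-1948-3p), -1.31 to -1.12 (miR-802-5p) and -1.22 to -0.97 (miR-802-3p). The number of microRNAs called lay between 47 (without male 3) and 82 (without male 1) with a liver left out, and between 48 and 85 otherwise. miR-1948-3p, under 10 CPM, gave no value where that minimum was set.

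Replicate numbers did not pair the livers: deviations of same-numbered males and females correlated between -0.13 and 0.30, over 0.1 in 2 of 6 pairs, and 0 of 6 males and 2 of 6 females correlated best with their own number. With the replicate block 48 microRNAs were called, and log2 fold changes were 2.64, 2.63, -1.23 and -1.11 in the order above.

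The difference in 5p share between the hairpins was 9.60 percentage points after thinning and 9.81 to 10.4 with a liver left out. The male minus female log2 ratio of the 5p arms, 3.87, was 3.85 with both arms summed and 3.70 to 3.99 with a liver left out. The r of the miR-1948 arms in females ranged from -0.28 (without female 1) to 0.85 (without female 4); the cause was not tested. Values of miR-1948-3p in females rest on 2 to 8 counts a liver.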

Other observations

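The 5p shares of the hairpins are set side by side here as a description, since their order over male livers was noticed after the values were seen. In the 6 males the share of miR-1948 ran from 97.3% in male 1 to 98.9% in male 6, and that of miR-802 from 83.0% to 90.8% in the same livers. Pearson r and Spearman rho were both 0.94, given with no test since the values prompted the comparison. Without males 1 and 6, r was 0.76. In the 6 females r was -0.02 and rho -0.26, and without females 1 and 4 r was -0.06. The difference between the sexes in this relation was not tested. Among 124 hairpins with both arms tested, the 5p share was lower in male 1 than in male 6 in 77, or 62.1%. Male 1 had the lowest share of the males in 50 of these hairpins, male 6 the highest in 36, and both held in 21. Some of the 124 are mirrored names, such as miR-486a and miR-486b. A lower share in male 1 under either name is a higher share under the other, which draws the 62.1% toward an even split.

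No member, share or ratio had a liver far enough from its sex to be flagged, in 14 groups of 6 livers.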
